A study of Mus musculus with 6 samples.

Results

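Mature microRNAs (miRNAs), the short RNAs that repress matching transcripts, were read from mouse miRNA arrays, and 6 of them are described here: mmu-miR-199a-3p, mmu-miR-199a-5p, mmu-miR-214, mmu-miR-143, mmu-miR-145 and mmu-miR-21, written without the mouse prefix from here on. They were taken by name from the array's list of mouse miRNAs, without star (passenger strand) names, and all 6 were found among 611. They are used as marks of mesenchymal, fibroblast-like and smooth muscle cells. The RNA came from EB3, an embryonic stem (ES) cell line of 129/Ola background. Of 6 samples with 1 single-colour array each, 3 carry the title Activin (-) and the source name of a control, and 3 carry the title Activin (+) and a source name of cells differentiated with Activin, which signals through receptors of the TGF-beta class. The culture text gives Activin at 10 ng/ml over 3 days as embryoid bodies and 15 days on gelatin, 18 days in all, and is the same for all 6 samples. The sources used here therefore leave unsaid if the controls were kept as ES cells or went through the same culture with no Activin. All samples are of 1 line, and nothing says that the 3 samples of a group were separate cultures, so each p-value reflects only the scatter among the 6 samples, and that scatter may be technical.

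One primary transcript, Dnm3os, carries both Mir199a-2 and Mir214, and the Mir199a-2 hairpin yields miR-199a-5p from its 5' arm and miR-199a-3p from its 3' arm. The transcript is active in mesenchyme and its derivatives and is under the control of Twist1. Mir143 and Mir145 share the long RNA Carmn, which is a mark of smooth muscle and pericytes, and miR-145 is known to repress Oct4, Sox2 and Klf4. Mir21a lies in the span of Vmp1. Its miRNA is abundant in fibroblasts, and SMAD proteins, which carry TGF-beta and Activin signals, are known to promote its processing.

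Sequences are shown for the 4 members that the arrays detected, since the results rest on them. They were matched by name to a RefSeq table of build GRCm38.p6, where miR-214 is miR-214-3p and miR-21 is miR-21a-5p. Each runs 5' to 3', with the seed (bases 2 to 8), the part that pairs with targets, in capitals.
miR-199a-3p: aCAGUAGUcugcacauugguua
miR-199a-5p: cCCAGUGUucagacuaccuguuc
miR-214: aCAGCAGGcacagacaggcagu
miR-21: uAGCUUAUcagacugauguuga
The 4 seeds differ, so no seed family is shared among them. The table gives miR-199a-3p at chr1:162217883-162217904 on the plus strand (Mir199a-2) and at chr9:21496498-21496519 on the minus strand (Mir199a-1), and lists miR-199b-3p with an identical sequence. miR-199a-5p has the same pair of loci, at chr1:162217844-162217866 and chr9:21496537-21496559. The signal of either arm can therefore not be assigned to Dnm3os alone. miR-214 lies at chr1:162223438-162223459 on the plus strand and miR-21 at chr11:86584120-86584141 on the minus strand. Among the 1679 mature names searched in that table, the seed of miR-214 recurs in miR-761 and that of miR-21 in miR-21c. A miRNA missing from these names could share a seed with any member. miR-761 was detected on 0 of 6 arrays.

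The hairpins of the shared transcript are shown to place the arms, which are in capitals. They lie 5444 bases apart on chromosome 1 of GRCm38.p6, at chr1:162217814-162217923 and chr1:162223368-162223477, both on the plus strand.
Mir199a-2: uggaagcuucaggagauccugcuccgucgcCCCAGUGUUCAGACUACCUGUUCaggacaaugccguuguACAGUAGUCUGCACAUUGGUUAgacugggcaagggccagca
Mir214: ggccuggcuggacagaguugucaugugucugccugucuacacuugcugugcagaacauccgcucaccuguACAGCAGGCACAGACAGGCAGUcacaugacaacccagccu

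The arrays differed in brightness. The 75th percentile of the probes detected on all arrays was 249 and 177 intensity units on Activin (-) 1 and Activin (+) 2 and between 427 and 616 on the other 4, so fold changes and the correlations below are also given without this pair of dim arrays. Mouse miRNAs detected per array ran from 54 to 119. The software's median coefficient of variation was 17.6% on Activin (-) 1 and 15.8% on Activin (+) 2, and 6.88% to 9.59% on the other 4. It marked the labelling spike-in signal as out of range on all 6 arrays, and the hybridisation spike-in signal as in range on all 6. Of the 14 ES cell markers (the miR-290 and miR-302 clusters) 10 were detected on at least 1 array. Their summed scaled signal ran from 6.29 to 16.0 in Activin (-) and from 5.95 to 7.67 in Activin (+). Of the 6 of them tested, 5 had a log2 fold change below 0 and 1, miR-302c, above 0. Of all 79 mouse miRNAs tested, 29 lay below 0. The 5 ES cell markers below 0 had limma adjusted p from 0.216 to 0.589. Of markers of other cells, 0 of 6 haematopoietic, 0 of 1 liver, 1 of 2 endothelial, 1 of 6 striated muscle, 1 of 3 neural and 3 of 7 epithelial miRNAs were detected on any array. Their part in the values of the members was not tested.

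Both miR-199a arms, miR-214 and miR-21 were present in both groups, and miR-143 and miR-145 did not meet the rule for detection in either. Each probe has up to 10 usable spots, and detection required that the software mark more than 0.5 of them as well above background for at least 1 probe of the miRNA. By this rule miR-199a-3p, miR-214 and miR-21 were detected on all 6 arrays. miR-199a-5p was detected on all 3 Activin (-) arrays and on 2 of 3 Activin (+) arrays. miR-143 and miR-145 were detected on 0 of 6. For comparison, 53 of the 611 mouse miRNAs were detected on all 6 arrays and 130 on at least 1. No miRNA spot was saturated.

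**Figure D1:**
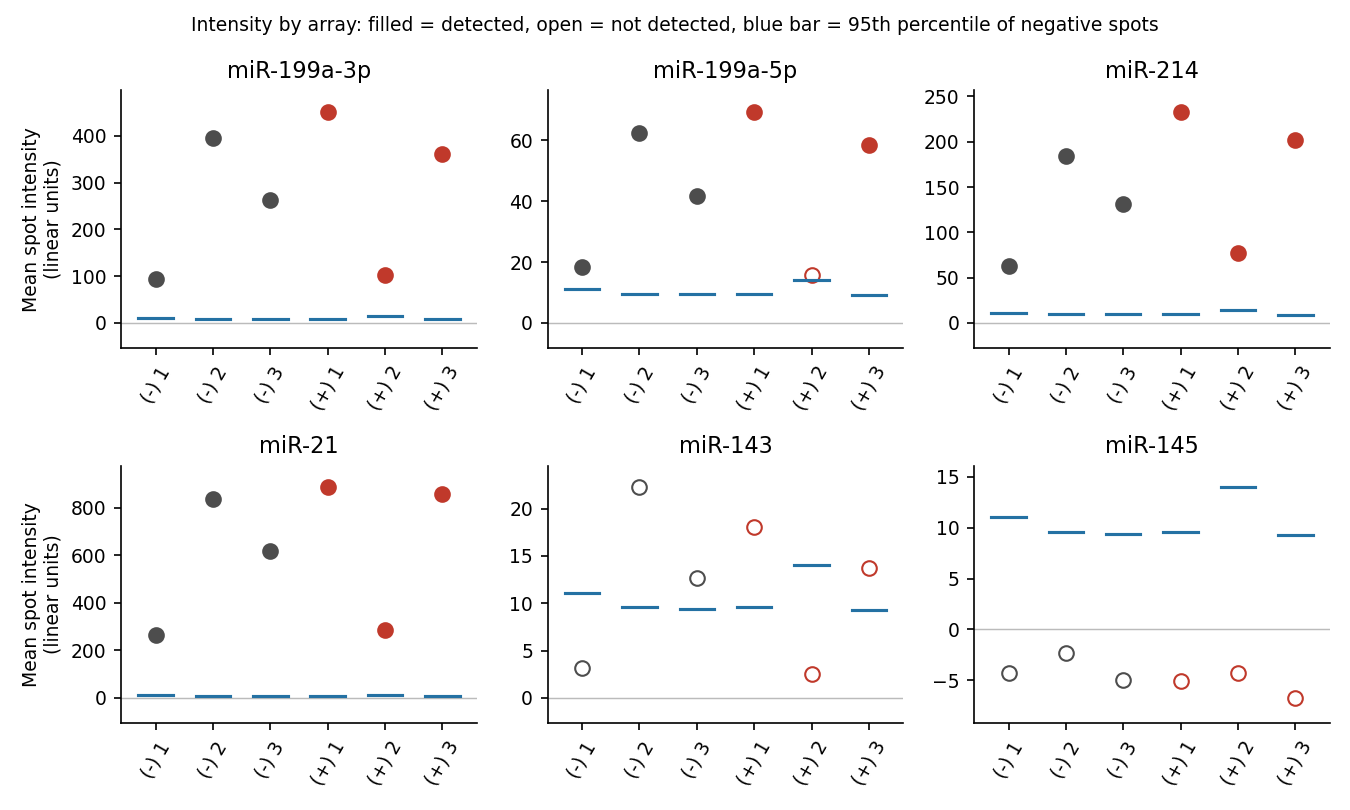
Mean spot intensity (linear units, background-subtracted, not scaled between arrays) of each member on each array, with grey points for Activin (-) and red for Activin (+), filled where the miRNA was detected. Blue bars give the 95th percentile of single negative control spots on that array. miR-199a-3p, miR-214 and miR-21 stood above the bars throughout, and miR-145 stood below 0 on every array.

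miR-199a-3p, the 3' arm of the Mir199a hairpins, had a mean intensity of 93.6, 394 and 262 units on Activin (-) 1, 2 and 3 and of 451, 103 and 361 on Activin (+) 1, 2 and 3. These intensities followed the brightness of the arrays, so each was divided by the array's 75th percentile of detected probes and put on a log2 scale. The log2 scaled signals were -1.41, -0.64 and -0.70 in Activin (-) and -0.34, -0.78 and -0.62 in Activin (+). Activin (-) 1 stood lowest and the groups overlapped, since Activin (+) 2 lay below both other control arrays. The means were -0.92 ± 0.43 and -0.58 ± 0.23 (SD, n = 3 each). Activin (+) exceeded Activin (-) by a log2 value of 0.34 with an SE of 0.30 and a 95% interval from -0.24 to 0.92, or 1.27-fold (limma adjusted p = 0.614). Leaving out Activin (-) 1 gave 0.09, leaving out Activin (+) 1 gave 0.22, and leaving out the pair of dim arrays gave 0.22.

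miR-199a-5p, the 5' arm of the same hairpins, was the dimmest of the detected members, at 18.5, 62.4 and 41.6 intensity units in Activin (-) and 69.5, 15.6 and 58.5 in Activin (+). On Activin (+) 2 none of its usable spots was well above background. One of its pair of probes, A_54_P2378, was detected on 0 arrays, with intensities from -0.0748 to 9.73, so the signal came from the other, A_54_P2377. The log2 scaled signals were -3.75, -3.30 and -3.36 in Activin (-) and -3.04, -3.50 and -3.24 in Activin (+). The groups overlapped, with Activin (-) 1 and Activin (+) 2, the dim arrays, the lowest of their groups. The means were -3.47 ± 0.25 and -3.26 ± 0.23 (SD, n = 3 each), which differ by 0.21 on the log2 scale with an SE of 0.29 and a 95% interval from -0.37 to 0.79 (limma adjusted p = 0.754). Its direction turned with spike-in scaling, to -0.012, and with normexp background correction, to -0.47. Without Activin (-) 1 the value was 0.07, without Activin (+) 1 it was 0.10, and without both dim arrays 0.22.

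miR-214, known to repress the histone methyltransferase Ezh2, stood higher on every Activin (+) array than on any Activin (-) array. Its intensities were 62.5, 184 and 131 units in Activin (-) and 233, 77.4 and 202 in Activin (+), and its log2 scaled signals were -1.99, -1.74 and -1.71 against -1.29, -1.20 and -1.45. The lowest Activin (+) array lay 0.25 above the highest Activin (-) array. The means were -1.81 ± 0.16 and -1.31 ± 0.13 (SD, n = 3 each). The log2 fold change was 0.50, or 1.41-fold, with an SE of 0.29 and a 95% interval from -0.08 to 1.08 (limma adjusted p = 0.427), and did not pass the threshold. An exact permutation test of the 3 against 3 arrays gave p = 0.1 (two-sided), the smallest it can give. Both probes differed in the same direction, by 0.48 for A_54_P2620, detected on 6 arrays, and by 0.68 for A_54_P2619, detected on 3. The 0.68 rests in part on values near background. A_54_P2619 lay at the floor on Activin (-) 1 (7.18 units). On Activin (+) 2 (13.2 units) 0 of its 10 spots were well above background. The log2 fold change of miR-214 was 0.41 without Activin (-) 1, 0.28 without Activin (+) 2 and 0.38 without both dim arrays. With normexp background correction it was 0.01.

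miR-21, known to repress Pdcd4, was the brightest member on every array, which says nothing of its amount since probes differ in binding strength. Its intensities were 264, 837 and 619 units in Activin (-) and 888, 286 and 857 in Activin (+). Its log2 scaled signals were 0.08, 0.44 and 0.54 in Activin (-) and 0.64, 0.69 and 0.63 in Activin (+). The 3 Activin (+) arrays lay close together and above every Activin (-) array, by a gap of 0.09 from the nearest. The means were 0.35 ± 0.24 and 0.65 ± 0.03 (SD, n = 3 each). The log2 fold change was 0.30, or 1.23-fold, with an SE of 0.29 and a 95% interval from -0.28 to 0.88 (limma adjusted p = 0.619). The exact permutation p was again 0.1 (two-sided), the smallest possible. It fell to 0.16 without Activin (-) 1, to 0.12 without Activin (+) 2 and to 0.17 without both dim arrays. The brighter probe, A_54_P1307, differed by 0.31 with groups that did not overlap, and A_54_P1308 by 0.20 with groups that did.

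**Figure D2:**
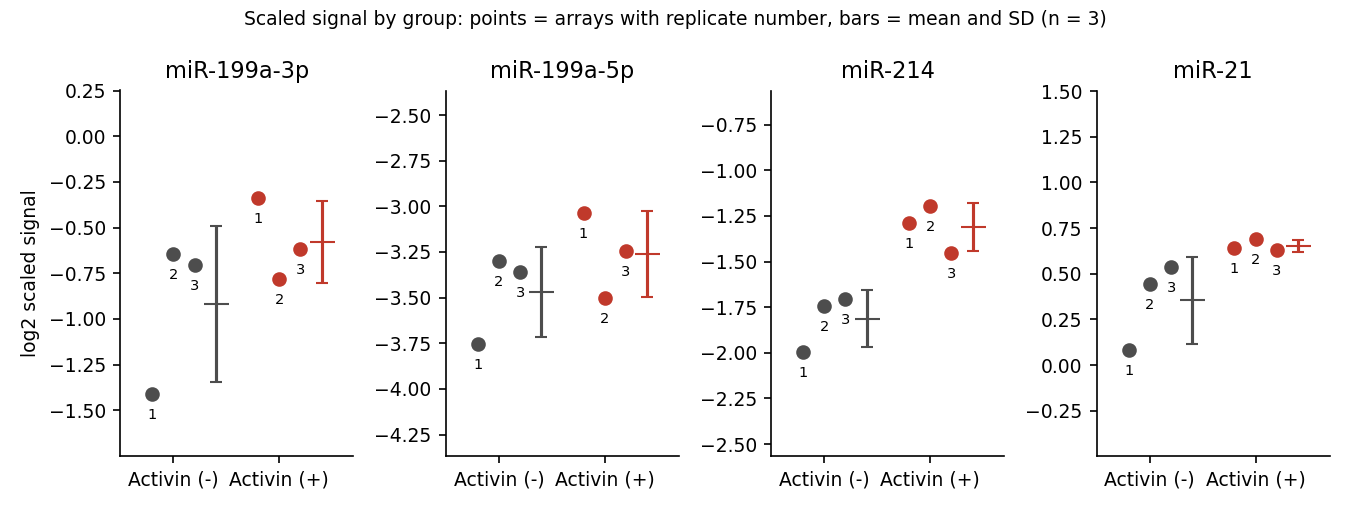
log2 scaled signal of the 4 tested members in Activin (-) (grey) and Activin (+) (red), with each array's replicate number and the mean and SD of each group (n = 3). The groups do not overlap for miR-214 and miR-21, and they overlap for miR-199a-3p and miR-199a-5p. Activin (-) 1 is the lowest array for all 4.

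Among the 79 mouse miRNAs tested, for which every array of 1 group or of both gave detection, 1 passed an adjusted p of 0.05 (1.27% of those tested). It was miR-302c, an ES cell marker, named after its values were seen, at 1.23 (SE 0.30, limma adjusted p = 0.00597). The groups of miR-302c overlapped, and it was detected on 2 of 3 Activin (-) arrays and on 3 of 3 Activin (+) arrays. Its lowest intensity was 8.74 units. Of the members, 0 of 4 tested passed and 0 had an unadjusted p under 0.05 with limma. miR-214 had an unadjusted limma p from 0.0124 to 0.0474 under 6 of 24 alternatives, with adjusted values from 0.178 to 0.698. All 4 tested members had a log2 fold change above 0, as did 63.3% of the tested miRNAs, and all 4 stood above the median of the tested miRNAs, as 49.4% do. The median was 0.32 over the 4 members and 0.17 over all 79. Relative to that 0.17, miR-214 stood at 0.34, miR-199a-3p at 0.17, miR-21 at 0.13 and miR-199a-5p at 0.04. miR-214 had the change of rank 9 from the top, miR-199a-3p rank 19, miR-21 rank 26 and miR-199a-5p rank 35. Groups did not overlap, with Activin (+) higher, for 2 members and for 9 of the 79 miRNAs (11.4%), the members among them. For 0 of the 4 tested members, and for 5 of the 79 miRNAs (6.33%), groups did not overlap with Activin (+) lower. In bulk RNA, fewer cells of a type and less RNA per cell cannot be told apart.

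**Figure D3:**
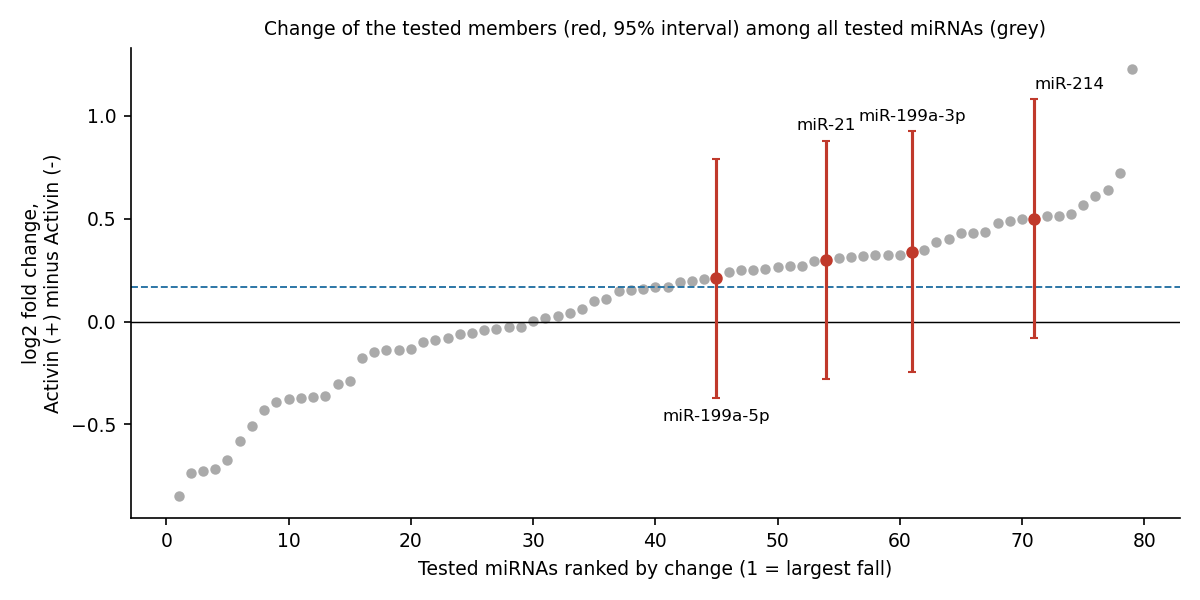
log2 fold change, Activin (+) minus Activin (-), of the 79 tested miRNAs in order of size, with the 4 tested members in red and their 95% intervals from limma. The dashed line is the median of all tested miRNAs, 0.17. Each member lies above the line and each interval includes 0.

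The intervals rest on a spread pooled over all miRNAs, with 194 prior degrees of freedom, and not on the spread of each member. miR-214 and miR-21 varied less within groups than most, with a pooled SD of 0.14 and 0.17 (rank 3 and rank 5 from the lowest of 79), against a median of 0.31. miR-199a-5p had 0.24 (rank 20) and miR-199a-3p 0.34 (rank 49). The upper bounds of the intervals, as folds, were 2.11 for miR-214, 1.90 for miR-199a-3p, 1.84 for miR-21 and 1.73 for miR-199a-5p. The separation of the groups depended on the scaling. For miR-214 it held under 5 of 9 alternatives of scaling, background and probe summary, and for miR-21 under 6 of 9. Where it held for miR-21 the gap was as small as 0.00095 with quantile normalization, 0.0046 with the software's total signal and 0.0059 with the mean of log2 over probes. The smallest such gap for miR-214 was 0.036, with median centring. It was lost for both with the 75th percentile of all probes, without scaling and with spike-in scaling, and for miR-214 also with normexp. The count of all 79 tested miRNAs with groups apart, Activin (+) higher, moved too. That count was 14 with quantile normalization and with median centring, and 5 to 10 with the other probe summaries. With the 75th percentile of all probes and without scaling the count was 0, and with spike-in scaling and with normexp 1.

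**Figure D4:**
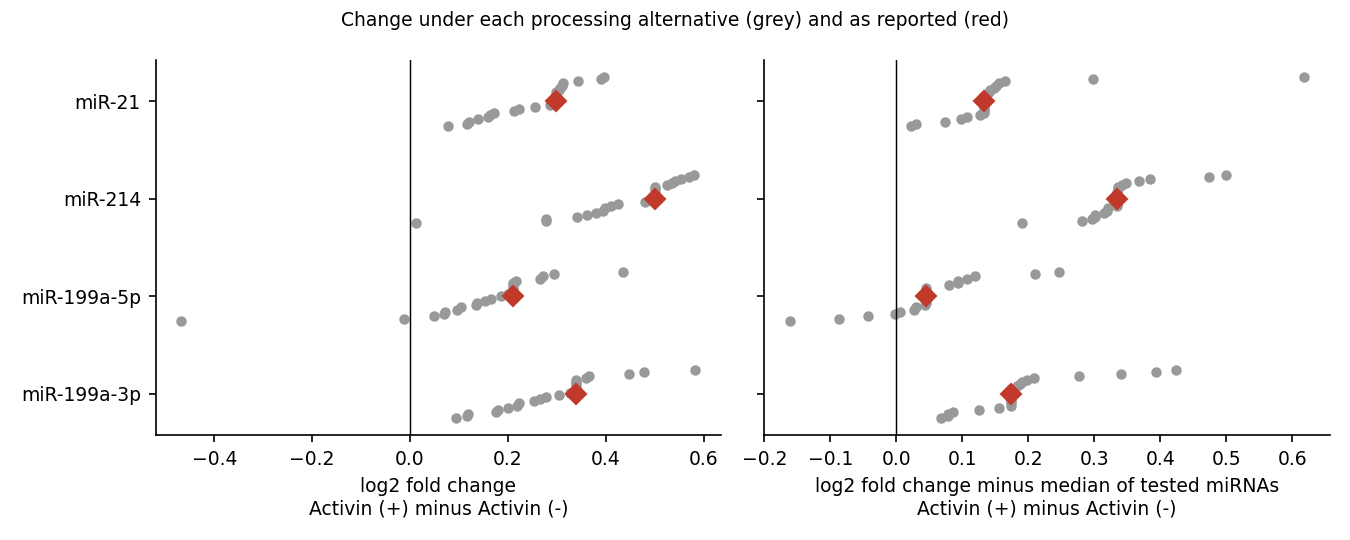
log2 fold change of the tested members as reported (red diamonds) and under each processing alternative (grey points, ordered by size), left as such and right minus the median of the tested miRNAs. miR-214, miR-21 and miR-199a-3p stay above 0 in both panels, and miR-199a-5p has points on both sides of 0.

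Position on the slide gave the same signs with different sizes. The dim arrays Activin (-) 1 and Activin (+) 2 shared slide column 1, and Activin (-) 2 and Activin (+) 3 shared column 2. In column 1 Activin (+) exceeded Activin (-) by 0.80 for miR-214, 0.63 for miR-199a-3p, 0.61 for miR-21 and 0.25 for miR-199a-5p, which was not detected on Activin (+) 2, where the median of tested miRNAs was 0.50. In column 2 the differences were 0.29, 0.03, 0.19 and 0.06, with a median of 0.03. In both columns miR-214 and miR-21 exceeded the median. Slide row 1 held the 3 Activin (-) arrays and Activin (+) 1. Within it the differences were 0.53 for miR-214, 0.58 for miR-199a-3p, 0.29 for miR-21 and 0.44 for miR-199a-5p, with a median of 0.19.

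The arms of the miR-199a hairpin had a high correlation across the arrays, which fell with normexp. Over the 6 arrays, log2 scaled signals of miR-199a-3p and miR-199a-5p had Pearson's r = 0.964 (exact permutation p = 0.00139, the smallest possible, 0.126 after Benjamini-Hochberg adjustment over all 3081 pairs of tested miRNAs) and Spearman's rho = 1 (exact permutation p = 0.00278, adjusted 0.225). The order of the arrays was the same for both arms, with Activin (-) 1 lowest and Activin (+) 1 highest, though miR-199a-5p was not detected on Activin (+) 2. Without the 2 arrays farthest from the median, Activin (-) 1 and Activin (+) 1, r was 0.992 over 4 arrays, without both dim arrays it was 0.991 over 4 arrays, and on deviations from the group means it was 0.955. With normexp background correction it was 0.454 (exact permutation adjusted p = 0.426). The SD of the difference between the arms was 0.14, and 2.89% of all pairs had a smaller one. Pairs share the arrays and the scaling, and the median r over all pairs was 0.29.

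The correlation of miR-214 with the miR-199a arms depended on the arrays and on the scaling. Its r was 0.689 with miR-199a-3p (exact permutation p = 0.118, adjusted 0.445; rho = 0.371, exact p = 0.497, adjusted 0.842) and 0.562 with miR-199a-5p (exact permutation p = 0.257, adjusted 0.606; rho = 0.371, exact p = 0.497, adjusted 0.842). Without Activin (-) 1 and Activin (+) 1 these turned to -0.600 and -0.614 over 4 arrays, so the values depend on which arrays are kept. Those were the lowest and highest arrays of miR-199a-3p, so leaving them out also narrows its range. Without both dim arrays they were 0.869 and 0.918 over 4 arrays. Over 6 arrays they were 0.979 and 0.952 with the 75th percentile of all probes, 0.829 and 0.823 with spike-in scaling, and 0.069 and 0.083 with quantile normalization. With normexp they were 0.647 and 0.927 (adjusted exact permutation p = 0.237 and 0.0431), both above the 0.454 of the arms. On Activin (+) 2 miR-214 had its highest signal, while miR-199a-3p had its second lowest. Among the other 78 tested miRNAs, miR-214 ranked 34 by r for miR-199a-3p and 35 for miR-199a-5p. For each pair the difference had an SD of 0.27 and 0.26, against a median of 0.42 over all pairs.

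miR-214 and miR-21, a miRNA of another chromosome, gave the arrays the same order. Their r was 0.903 (exact permutation p = 0.00139, adjusted 0.126) and rho = 1 (exact p = 0.00278, adjusted 0.225). Without Activin (-) 1 and Activin (-) 2, the arrays farthest from the median of miR-21, r was 0.972 over 4 arrays. Without both dim arrays it was 0.903 over 4 arrays, and on deviations from the group means it was 0.830. It fell to 0.598 with quantile normalization and to 0.020 with normexp. By r, miR-21 ranked 6 among the other 78 tested miRNAs for miR-214, and miR-214 ranked 12 for miR-21. miR-324-5p and miR-652 also had rho = 1 with miR-214. miR-21 had r = 0.849 with miR-199a-3p (exact permutation p = 0.0819, adjusted 0.382; rho = 0.371, exact p = 0.497, adjusted 0.842) and 0.712 with miR-199a-5p (exact permutation p = 0.137, adjusted 0.473; rho = 0.371, exact p = 0.497, adjusted 0.842). Without the same 2 arrays these were 0.0355 and -0.0900 over 4 arrays, so they depend on which arrays are kept. Of all 3081 pairs, 0 had an adjusted exact permutation p under 0.05 by Pearson's r. The difference between the correlation of the arms and that of miR-214 with them was not tested.

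**Figure D5:**
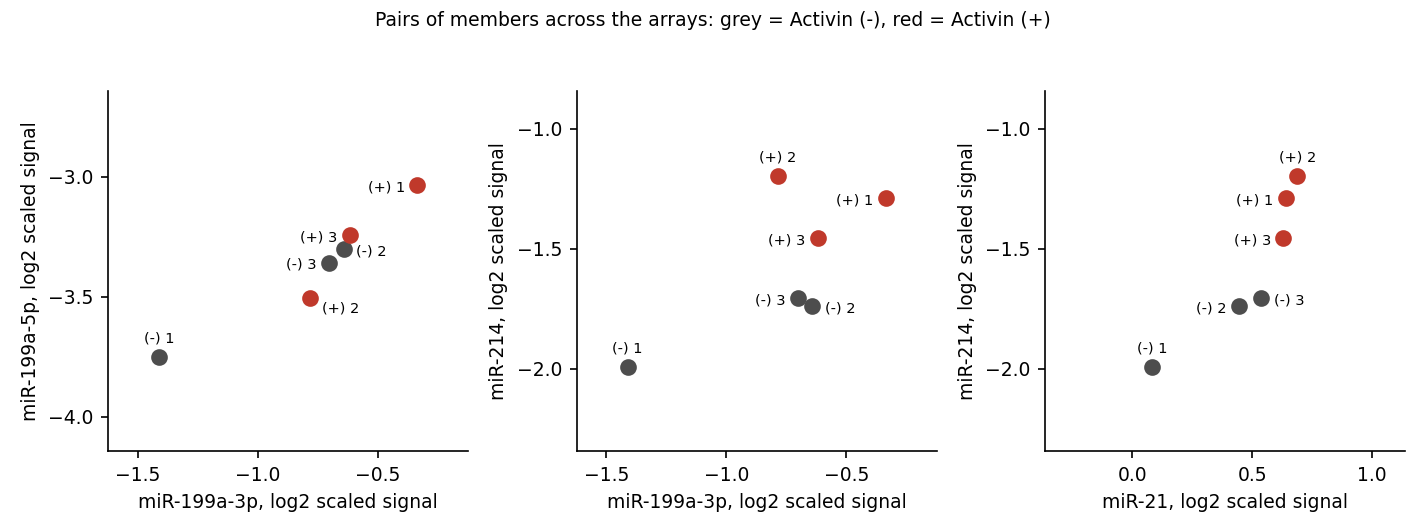
log2 scaled signal of miR-199a-5p against miR-199a-3p, of miR-214 against miR-199a-3p, and of miR-214 against miR-21, with 1 point per array (grey Activin (-), red Activin (+)) and equal axis lengths of log2 units. The arms of miR-199a lie near a line (r = 0.964). In the middle panel Activin (+) 2 is high for miR-214 and low for miR-199a-3p.

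The tested miRNAs most like each member by r over the 6 arrays are given as a description. For miR-199a-3p they were miR-107 (r = 0.988), miR-199a-5p (0.964) and miR-26a (0.949), and for miR-199a-5p they were miR-199a-3p (0.964), miR-107 (0.937) and miR-125b-5p (0.931). For miR-214 they were miR-324-5p (0.972), miR-652 (0.939) and miR-151-5p (0.930), and for miR-21 they were miR-652 (0.975), miR-27a (0.973) and miR-342-3p (0.972). The nearest miRNA of miR-199a-5p was thus its partner arm, but that of miR-199a-3p was miR-107. The difference of miR-199a-5p from miR-107 also had a smaller SD (0.085) than that from its partner arm (0.14). miR-652 was near both miR-214 and miR-21. The log2 fold changes of these neighbours were 0.20 for miR-107, 0.48 for miR-324-5p and 0.52 for miR-652.

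miR-143 and miR-145, the smooth muscle pair, did not meet the rule for detection on any array. miR-145 had mean intensities of -4.23, -2.27 and -5.00 units in Activin (-) and -5.11, -4.32 and -6.73 in Activin (+), below the mean of negative control spots on every array. 0 of its usable spots on any array was well above background. miR-143 had intensities of 3.12, 22.3 and 12.7 in Activin (-) and 18.1, 2.56 and 13.8 in Activin (+). On the 4 brighter arrays these means lay above the 95th percentile of single negative spots, which was 9.26 to 9.59 there, and on the dim arrays below it. Of its spots, 4 were well above background, all of 1 probe on Activin (-) 2. The software's own call marked miR-143 as detected on Activin (-) 2 and Activin (+) 1 and miR-145 on none. miR-143 thus gave some signal above the negative spots on the 4 brighter arrays, where it stood 2.34 to 4.25 SDs of single negative spots above their mean, and miR-145 gave none. Since neither met the rule for detection on any array, no fold and no correlation between them is given.

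The listed other strands of these hairpins were not detected. miR-214*, miR-145* and miR-21* were detected on 0 of 6 arrays. miR-199b*, of the related Mir199b hairpin, was detected on all 6, with log2 scaled signals of -2.08, -1.29 and -1.51 in Activin (-) and -1.38, -1.37 and -1.37 in Activin (+). Its log2 fold change was 0.25 (SE 0.29, limma adjusted p = 0.659), with groups that overlapped. As for all 4 tested members, Activin (-) 1 gave its lowest value.

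Other miRNAs tied to fibroblasts, smooth muscle, matrix or TGF-beta signalling gave no call in either direction. Of 23 listed, the array holds 22. Detection on 1 array or more was seen for 11, and of the 8 tested 0 passed with limma, against 1.27% of all tested miRNAs. Of the 8, 7 had a log2 fold change above 0, as did 63.3% of all tested miRNAs, and 1 below, with a median of 0.20, and 4 stood above the median of 0.17 over all tested miRNAs. The largest rise in value was that of miR-27a, at 0.51 (SE 0.30, limma adjusted p = 0.427), and its groups were fully apart, with Activin (+) higher, as for 11.4% of all tested miRNAs. The largest fall in value was that of miR-100, at -0.58 (SE 0.30, limma adjusted p = 0.405), with groups that overlapped and detection on 2 of 3 Activin (+) arrays. The matrix-repressing miR-29 family was little seen, with miR-29a detected on 2 arrays of each group and miR-29b and miR-29c on 0. miR-31, miR-155, miR-181a, miR-221 and miR-222 were also detected on 0 arrays.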

How the data were processed

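Each sample was hybridised as 100 ng of Cy3-labelled total RNA to 1 array, all on 1 slide. The deposited scanner files hold spot intensities on a linear scale, made with Feature Extraction of Agilent. Its version is 10.7.3.1 in the headers and 10.1.1 per the submitters' processing notes, a difference not reconciled here. Per the file headers it subtracted background and set the deposited 0 or 1 flags. No step that scales one array to another is named. Intensities in the authors' deposited table of the whole series gave identical values for the members. The number of arrays limits the precision.

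Processed signals of spots without outlier flags were averaged per probe and then per miRNA and divided by each array's 75th percentile, taken over 59 probes with detection on every array. They were floored at 0.0326 and put on the log2 scale, and no tested member lay at the floor. Groups were compared with limma 3.58.1 in R 4.3.3 (two-sided, Benjamini-Hochberg over 79 tested miRNAs, threshold 0.05), which was tested on simulated data. Correlations used exact permutation over 720 pairings. Alternatives covered scaling, background (normexp on median spot signals, offset 50), probe summary, floor, filter, blocks and left-out arrays. Named miRNAs beyond the members follow a rule: per tested member the 3 with the highest r, and of the list of other mesenchymal and TGF-beta miRNAs the largest rise and fall. Others named from lists, and miR-761, were chosen after their values were seen. The members and lists were chosen with earlier results of these data known.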

Additional observations from a re-analysis of the deposited data

How the results depend on the processing

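Of 24 alternatives, the count of miRNAs past the threshold stayed at 1 under 5 and was 0 with limma under 19, where 0 to 15 miRNAs had an unadjusted p under 0.05. It was 0 with each other scaling, with normexp, with each other probe summary, with the floor at 2 times, without a filter, with miRNAs detected on all arrays, with slide row as a block (chosen after seeing the data) and without both dim arrays. Leaving out 1 array gave 0 to 1. None of the tested members passed under any alternative. miR-199a-3p ranged from 0.09 to 0.58, miR-214 from 0.01 to 0.58, miR-21 from 0.08 to 0.40 and miR-199a-5p from -0.47 to 0.44. The miR-199a-5p value was -0.012 with spike-in scaling and -0.47 with normexp, and the cause was not tested. The median of tested miRNAs moved from 0.17 to between -0.31 and 0.24.

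Between the arrays of replicate numbers 1, 2 and 3, deviations correlated at -0.643, -0.0949 and 0.343. These values cannot tell whether samples of the same number were prepared together. With the replicate block the count stayed at 1 and miR-214 at 0.50 (limma adjusted p = 0.679).

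Without scaling, where array brightness enters every value, the correlations of the miR-199a arms with each other and with miR-214 rose to 0.992, 0.987 and 0.971, and that of miR-21 with miR-214 to 0.985, and passed after adjustment. With normexp, miR-199a-5p and miR-214 reached 0.927 and passed, while the arms fell to 0.454 and miR-21 with miR-214 to 0.020. Without the 2 farthest arrays the correlations of miR-214 with miR-199a-3p and miR-199a-5p turned to -0.600 and -0.614. The alternatives for miR-21 with miR-214, and the correlations without both dim arrays, were chosen after seeing the data. With the software's call 5 members were detected on at least 1 array in place of 4. Low signal over background limits miR-199a-5p, miR-143 and miR-145 most.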
